A study of Mus musculus with 3 samples.

Results

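The genes described here were the ligands, receptors and cytoplasmic adaptors of the tumor necrosis factor (TNF) superfamily in macrophages of mouse skin. They were chosen by name and not by their values: each gene whose symbol begins with Tnfsf or Tnfrsf and a number, the ligands Tnf, Lta, Ltb, Fasl, Cd40lg, Cd70 and Eda, the receptors Ltbr, Fas, Cd27, Cd40, Ngfr, Edar and Eda2r, and the adaptors Traf1 to Traf6, Tradd, Fadd, Ripk1, Birc2, Birc3 and Cflar. The rule found 58 gene symbols, of which 56 had a probe on the array, out of 19752 genes with a probe and a current symbol. These 56 genes were 17 ligands, 27 receptors and 12 adaptors. Tnfsf13 and Tnfsf13os had no probe under these names and were not analysed here.

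Macrophages gated as CD11b+, Gr1- and F480+ (the product of Adgre1) had been sorted by FACS from the back skin of CD1 mice at early telogen (Te, P42), mid telogen (Tm, P55) and late telogen (Tl, P69), the resting stage of the hair follicle that precedes new growth. All 3 groups were of the same background, with no genotype or treatment named. The RNA of 3 littermate mice was pooled at each age, amplified and hybridised in one color to 1 array. Each age was thus a single sample, so that no difference had a replicate or a test, and age, litter and array cannot be told apart. The question was how the gene expression of these cells changed as follicles moved through telogen.

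TNF superfamily ligands are mostly trimeric proteins of the cell surface, some of which are cut off and act in soluble form. They bind receptors that carry either a cytoplasmic death domain, which recruits Tradd or Fadd and can lead through caspase-8 to cell death, or short motifs that recruit TRAF proteins. The TRAFs, with the ubiquitin ligases Birc2 and Birc3 and the kinase Ripk1, pass the signal to NF-κB and to the JNK and p38 kinases. Macrophages are a main source of TNF and respond to it themselves, and skin uses other members of the family, such as Eda, in the formation of hair follicles.

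NF-κB closes several loops of this system by inducing genes of the family itself, and for this reason the promoters of the measured genes were searched for its binding sequence. A match to the NF-κB consensus, on either strand within 250 bases before a start site, was found for 5 of the 45 genes of the family that had a promoter entry, in 5 of their 51 windows (9.8%), beside 7.25% of all 32851 promoter windows. The 5 genes were Ltb, Tnfrsf25, Tnfrsf8, Tnfrsf9 and Traf3. The sequences below are the 120 bases before the start site of the 4 of these genes that were well above background on all 3 arrays. They are from RefSeq on GRCm38.p6, 5′ to 3′ along the gene, and the capitals mark the match. They are shown because these genes encode a ligand, both kinds of receptor and an adaptor, and differed in how they changed. Ltb lies at chr17:35194387-35194506, Tnfrsf25 at chr4:152116223-152116342, Tnfrsf9 at chr4:150927879-150927998 and Traf3 at chr12:111166250-111166369, all on the plus strand.
Ltb: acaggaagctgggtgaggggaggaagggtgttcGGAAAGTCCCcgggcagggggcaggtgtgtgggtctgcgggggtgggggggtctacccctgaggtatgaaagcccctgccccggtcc
Tnfrsf25: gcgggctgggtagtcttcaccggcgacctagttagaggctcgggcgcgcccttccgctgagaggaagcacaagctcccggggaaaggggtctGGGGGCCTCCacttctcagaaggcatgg
Tnfrsf9: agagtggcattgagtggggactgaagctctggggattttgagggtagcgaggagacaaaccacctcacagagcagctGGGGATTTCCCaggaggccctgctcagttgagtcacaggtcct
Traf3: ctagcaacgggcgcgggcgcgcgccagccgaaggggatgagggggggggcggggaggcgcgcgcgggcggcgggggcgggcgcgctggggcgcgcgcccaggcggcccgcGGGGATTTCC
The match began 87 bases before the start in Ltb, 28 in Tnfrsf25, 43 in Tnfrsf9, where a second one overlaps it, and 10 in Traf3. Tnfrsf25 and Tnfrsf9 each have another start site in the table whose window held no match. The AP-1 sequence TGANTCA was found for Fas, Tnfrsf8, Tnfrsf9, Tnfsf13b and Tnfsf14, again 5 of 45 genes and 9.8% of their windows, beside 6.75% of all windows. A match is a run of letters and not a measured site, and the array gives no reading of binding.

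A level in what follows is the log2 of the signal over the 75th percentile of its array, and a change is the difference of a level from Te on the same log2 scale. The levels of different genes come from different probes and were not set against each other. A probe counted as detected where the scanner software called its spots well above background. Where only 1 array of a comparison detected it, the other took the probe's signal or that array's dimmest detected level, whichever was higher. The change is then written as at least N-fold, a bound that holds under this scaling and background setting only. Under quantile normalization the P55 bounds of Eda, Tnfrsf11b and Birc2 were -0.99, -0.66 and -0.45, short of 2-fold. That of Lta on the P69 array was -1.55, and -1.44 after normexp background correction. Detected probes made up 59.6% to 71.4% of each array. Probes spotted 10 times or more had a median SD of 0.11 to 0.13 between spots, which gives an SD of 0.17 for a difference between arrays. That SD covers the spotting of one sample and not the variation between mice. A 2-fold difference was used to describe changes, and the 10-fold threshold of the study's methods is given beside it.

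The labels of both later arrays were in doubt. The changes from Te that the deposited value table lists under P55 matched, within 0.05, those of the array deposited as P69 for 99.9% of 36380 probes, and those listed under P69 matched the array deposited as P55 for 99.8%. The table and the arrays of the same name correlated at r = 0.729 across probes. The text therefore names the P55 array and the P69 array by the label they were deposited under. Values seen on both later arrays, which do not depend on the order, come first.

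Markers of macrophages and of other skin cells were both detected. All 15 macrophage markers with a probe were detected on all 3 arrays, with a median change of -0.23 on the P55 array and -0.35 on the P69 array, and 2 and 3 of them at least 2-fold lower. Their summed signal, in multiples of the 75th percentile, was 989 at Te, 895 and 614, and 494, 472 and 383 without Itgam. Of the genes of the sort markers, Itgam (CD11b) changed by -0.23 and -1.10, and Adgre1 by 0.69 and 0.33. Of 15 keratinocyte markers, all detected on all 3 arrays, 13 were at least 2-fold higher on the P55 array and 12 on the P69 array, with medians of 3.29 and 3.09, and their summed signal, in multiples of the 75th percentile, was 279 at Te, 411 and 277. Trp63 alone made up most of the sum at Te, and the other 14 markers summed to 17.8, 148 and 114. Krt5, a keratin of basal keratinocytes, changed by 3.97 and 3.32. Of 10 T cell markers, 4 were higher and 1 lower on each later array, with medians of 0.71 and 0.67, Cd3e up by 4.20 and 3.08 and a summed signal of 9.65, 18.2 and 12.9. Of 8 dendritic and Langerhans cell markers, 3 were higher on each later array, and none was lower on the P55 array and 2 on the P69 array, with medians of 0.21 and -0.69. Cd207 (langerin) was up by 2.99 and 2.13, Ccr7 changed by 0.22 and -1.70 and Cd209a by -0.58 and -1.51, and the list had a summed signal of 147, 279 and 171. Fibroblast markers had medians of -0.82 over 9 genes and 0.25 over 10, endothelial markers of -0.95 and -0.11 over 7, and melanocyte markers of 1.28 and 0.08 over 7. B cell markers had medians of -0.42 and -0.86 over 4 genes, and NK cell markers of -0.46 and -1.11 over 6. Those of mast cells were -0.49 and 0.10 over 6, and those of neutrophils 0.66 over 5 and 0.18 over 4. Fewer cells of a type and less RNA per cell cannot be told apart in pooled samples, and the part of these other cells in the changes described here was not tested.

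Most genes of the family were detected. Of the 56, 42 were detected on all 3 arrays, 7 on 1 or 2 arrays and 7 on none. The share of all genes detected on all 3 arrays is not given here. A change from Te could be given on both later arrays for 47 of the 56, beside 15602 of 19752 genes overall. Adaptors were detected most often, with 11 of 12 on all 3 arrays, followed by 22 of 27 receptors and 9 of 17 ligands. The 7 genes detected on no array were the ligands Cd40lg, Cd70, Fasl, Tnfsf11 (RANKL) and Tnfsf4 (OX40L), and the receptors Edar and Tnfrsf8 (CD30). Tnfsf18 (GITRL) was detected only on the P69 array, at a level of -4.78, too near the detection limit for a change.

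**Figure D1:**
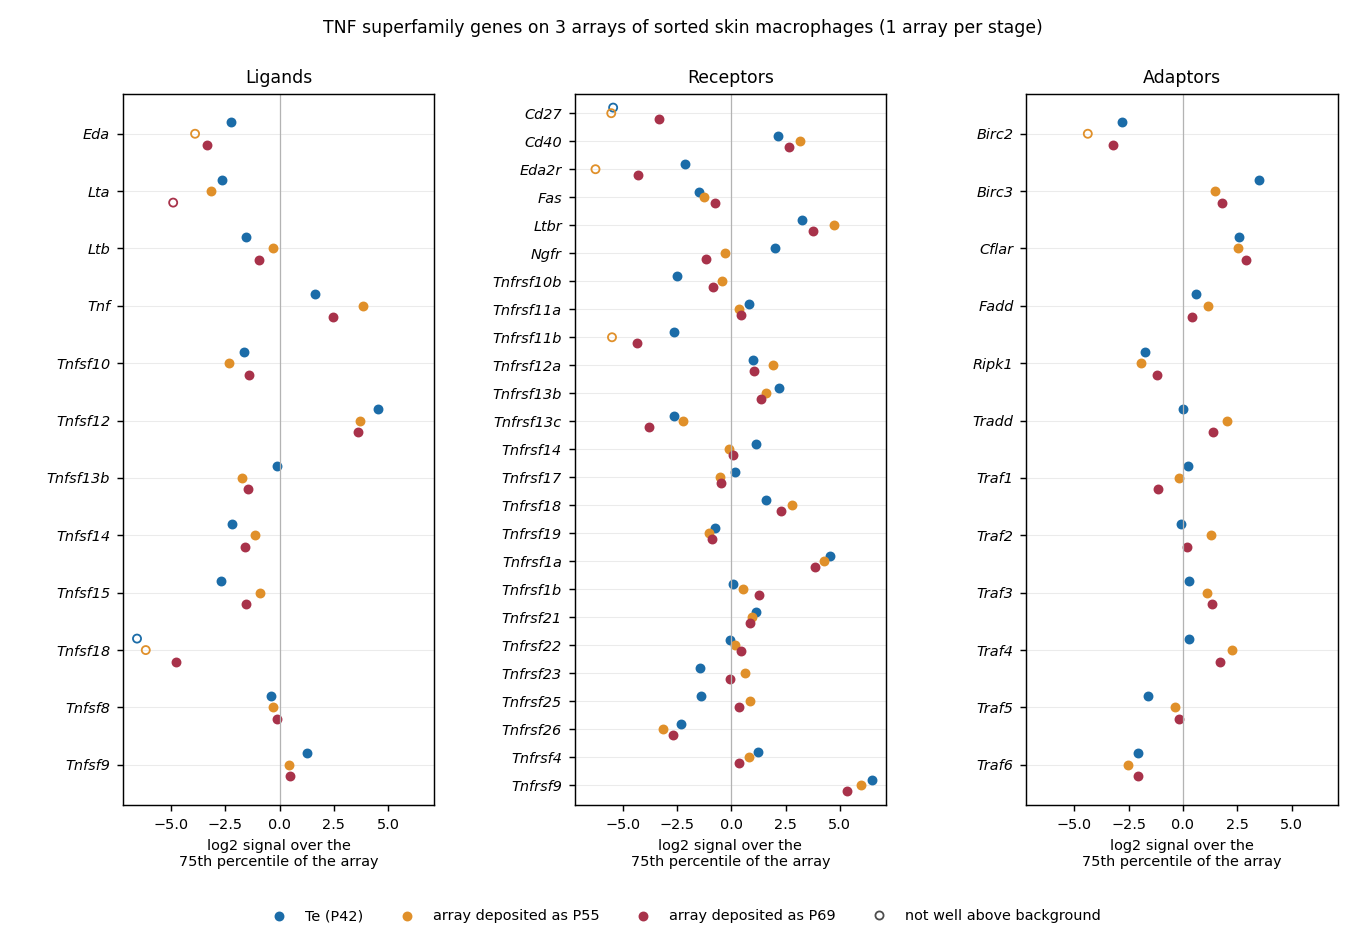
Levels of the TNF superfamily genes detected on at least 1 array, as log2 signal over the 75th percentile of the array, with 1 point per array and open circles where the probe was not well above background. Ngfr and Birc3 sit to the left of their Te points on both later arrays, and Tradd, Traf4, Tnfrsf25 and Tnfrsf10b to the right.

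Of 47 genes with a value on both later arrays, 7 exceeded Te at least 2-fold on each (14.9%, beside 16.6% of 15602 genes overall) and 7 lay at least 2-fold below it (14.9%, beside 11.3%). The higher genes were the adaptors Tradd, Traf4 and Traf5, the receptors Tnfrsf25, Tnfrsf10b and Tnfrsf23, and the ligand Tnfsf15. The lower genes were the adaptor Birc3, the receptors Ngfr, Tnfrsf11b, Tnfrsf14 and Eda2r, and the ligands Eda and Tnfsf13b. No gene was 2-fold higher on one later array and 2-fold lower on the other. Both comparisons share the Te array. With no scaling between arrays, 16 genes passed upward on both and 1 downward, Ngfr, and the P69 values of Eda and Tnfrsf14 turned to 0.0675 and 0.0730.

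Taken one array at a time, 14 of 47 genes were at least 2-fold higher on the P55 array (29.8%, beside 29.1% of 15843 genes) and 8 were lower (17%, beside 16.9%). On the P69 array, 10 of 48 were higher (20.8%, beside 22.2% of 16164 genes) and 11 were lower (22.9%, beside 20.7%). These shares lay near those of all genes. The median change of the family was -0.19 on the P55 array and 0.02 on the P69 array, beside 0.22 and 0.15 for all genes. At 10-fold, no gene of the family changed on either array, where 1.12% of all genes were higher and 0.316% lower on the P55 array, and 0.668% higher and 0.464% lower on the P69 array.

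**Figure D2:**
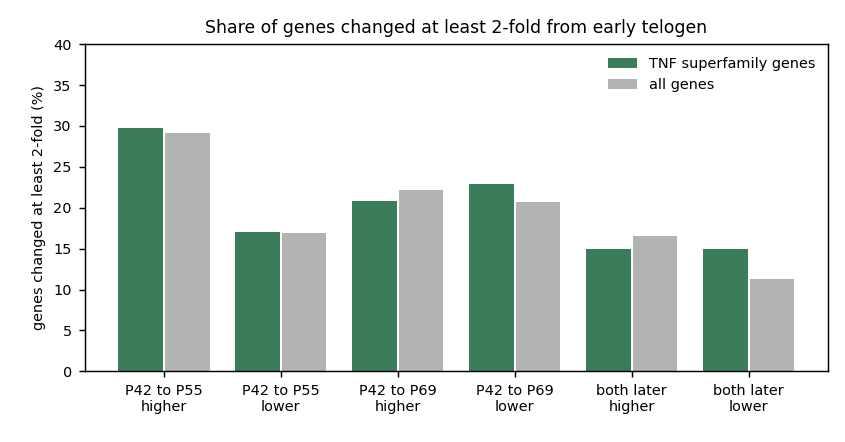
Share of genes at least 2-fold higher or lower than at Te, in percent of the genes with a value, for the TNF superfamily (47 or 48 genes) and for all genes, on each later array and on both. The bars of the family stand close to those of all genes, the widest gap being 14.9% against 11.3% for genes lower on both arrays.

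Ligands of macrophages split in direction. Tnf, the founding cytokine of the family, had a level of 1.65 at Te, 3.84 on the P55 array and 2.48 on the P69 array. It was 4.57-fold higher on the P55 array and 1.78-fold higher on the P69 array, so that only the former passed 2-fold. Ltb, which forms the membrane-bound lymphotoxin heterotrimer with Lta, had levels of -1.55, -0.28 and -0.95 and was 2.40-fold higher on the P55 array. Lta had levels of -2.66 and -3.14 at Te and on the P55 array and was not detected on the P69 array, at least 4.70-fold below Te. The 3 genes are neighbours on chromosome 17, where Tnf and Ltb passed 2-fold upward on the P55 array and Lta downward on the P69 array.

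Tnfsf15 (TL1A), a ligand that costimulates lymphocytes, was the ligand that rose at least 2-fold on both later arrays. Its levels were -2.72 at Te, -0.91 on the P55 array and -1.54 on the P69 array, 3.50-fold and 2.25-fold above Te. Its change on the P69 array, 1.17, was 0.97 with the 75th percentile taken over detected probes and 0.50 after normexp background correction, both short of 2-fold. Tnfsf8 (CD30L), its neighbour on chromosome 4, had levels of -0.37, -0.30 and -0.12 and changed by less than 2-fold. Tnfsf14 (LIGHT), a ligand of Ltbr and Tnfrsf14, had levels of -2.18, -1.15 and -1.60, and its change of 1.02 on the P55 array lay at the edge of 2-fold.

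Ligands fell as well. Tnfsf13b (BAFF), a survival factor of B cells made by myeloid cells, had levels of -0.11, -1.73 and -1.44, and was 3.09-fold lower on the P55 array and 2.52-fold lower on the P69 array. Eda, the ligand of the ectodysplasin pathway of hair and gland formation, had a level of -2.25 at Te and -3.35 on the P69 array, 2.14-fold lower, and was not detected on the P55 array, at least 3.11-fold lower. A second probe of Eda fell on both arrays too, by at least 1.19 and by 2.03. Tnfsf12 (TWEAK), with levels of 4.55, 3.72 and 3.62, Tnfsf9 (4-1BBL), with 1.26, 0.43 and 0.47, and Tnfsf10 (TRAIL), a death ligand, with -1.65, -2.34 and -1.40, stayed within 2-fold.

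The receptors of TNF differed from each other. Tnfrsf1a (TNFR1), the death domain receptor found on most cells, had levels of 4.53, 4.27 and 3.84, changes of -0.25 and -0.69. A second probe of Tnfrsf1a gave changes of 1.20 and 0.41, so that its direction depended on the probe. Tnfrsf1b (TNFR2), the TRAF-binding receptor of immune cells, had levels of 0.10, 0.54 and 1.29 and was 2.29-fold higher on the P69 array. Its change on the P55 array was 0.44.

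Of the other death domain receptors, a pair rose and Ngfr fell. Tnfrsf25 (DR3), the receptor of Tnfsf15, had levels of -1.40 at Te, 0.86 on the P55 array and 0.35 on the P69 array, 4.79-fold and 3.36-fold higher. Tnfrsf10b, the death receptor for TRAIL in the mouse, had levels of -2.52, -0.42 and -0.84, 4.28-fold and 3.19-fold higher. Fas, the receptor of Fasl, had levels of -1.48, -1.24 and -0.77 and stayed within 2-fold, as did Tnfrsf21 (DR6), with 1.15, 0.96 and 0.85.

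Ngfr, the p75 neurotrophin receptor, was among the genes that fell on both later arrays. Its levels were 2.01 at Te, -0.26 on the P55 array and -1.15 on the P69 array, 4.84-fold and 8.95-fold lower. Among all genes detected on both arrays of a comparison, 182 fell further on the P55 array and 44 on the P69 array. The repeated spots of Ngfr had an SD of 0.05 to 0.10 on each array.

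Eda2r and Tnfrsf11b, of the ectodysplasin and RANKL systems, fell on both later arrays. Eda2r, a receptor of an Eda isoform, had a level of -2.14 at Te and -4.29 on the P69 array, 4.41-fold lower, and was not detected on the P55 array, at least 3.72-fold lower. Its second probe was detected on no array. Tnfrsf11b (osteoprotegerin), the soluble decoy receptor of RANKL, had a level of -2.65 at Te and -4.34 on the P69 array, 3.24-fold lower, and was not detected on the P55 array, at least 2.62-fold lower. Tnfrsf11a (RANK) itself, which drives osteoclast formation in this lineage, had levels of 0.82, 0.34 and 0.44 and stayed within 2-fold.

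Receptors of lymphotoxin, CD40L and GITRL passed 2-fold on the P55 array and lay above Te by less than 2-fold on the P69 array, and the difference between those arrays was not tested. Ltbr, the lymphotoxin-β receptor, had levels of 3.28, 4.71 and 3.74, 2.69-fold higher on the P55 array and 1.38-fold on the P69 array. Tnfrsf18 (GITR) had levels of 1.60, 2.80 and 2.27, changes of 1.20 and 0.66. Cd40, through which T cells activate macrophages, had levels of 2.14, 3.16 and 2.65, and its change of 1.02 on the P55 array lay at the edge of 2-fold. Tnfrsf4 (OX40), the neighbour of Tnfrsf18 on chromosome 4, had levels of 1.22, 0.82 and 0.38 and stayed within 2-fold.

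Tnfrsf14 (HVEM), a receptor of Tnfsf14, had levels of 1.16, -0.11 and 0.07, 2.40-fold and 2.13-fold lower. A second probe of Tnfrsf14 gave -1.38 on the P55 array but 0.06 on the P69 array. Tnfrsf9 (4-1BB), an activation receptor, had levels of 6.47, 5.96 and 5.32, and passed 2-fold only on the P69 array, with a change of -1.16. Its second probe, detected only on the P55 array, pointed upward there by at least 0.54, against -0.52 by the first. Of the 3 receptors of the BAFF system, Tnfrsf13b (TACI) had levels of 2.22, 1.61 and 1.37, Tnfrsf17 (BCMA) 0.17, -0.54 and -0.49, and Tnfrsf13c (BAFF receptor) -2.62, -2.21 and -3.78. Tnfrsf13c was 2-fold lower on the P69 array by this probe, with a change of -1.16, but its second probe gave 2.19.

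The decoy-like receptors Tnfrsf22, Tnfrsf23 and Tnfrsf26 lie side by side on chromosome 7. Tnfrsf23 had levels of -1.42, 0.64 and -0.07, 4.17-fold and 2.54-fold higher, but a second probe gave -0.06 and 0.14. Tnfrsf22, whose sequence is closely related so that probes may not separate the genes, had levels of -0.04, 0.18 and 0.44. Tnfrsf26 had levels of -2.30, -3.15 and -2.66. Only Tnfrsf23 passed 2-fold, and by 1 of its probes.

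The remaining receptors stayed within 2-fold or were near the detection limit. Tnfrsf12a, the receptor of TWEAK, had levels of 0.98, 1.91 and 1.04. Tnfrsf19 (TROY), a marker of some epithelial stem cells, had levels of -0.76, -1.04 and -0.89, changes of -0.28 and -0.13. A second probe of Tnfrsf19 gave changes of 0.66 and 0.36. Cd27, a receptor of lymphocytes, was detected by its brighter probe only on the P69 array, at -3.32 and at least 2.17-fold above Te, while its second probe was detected at Te too and gave -0.36.

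**Figure D3:**
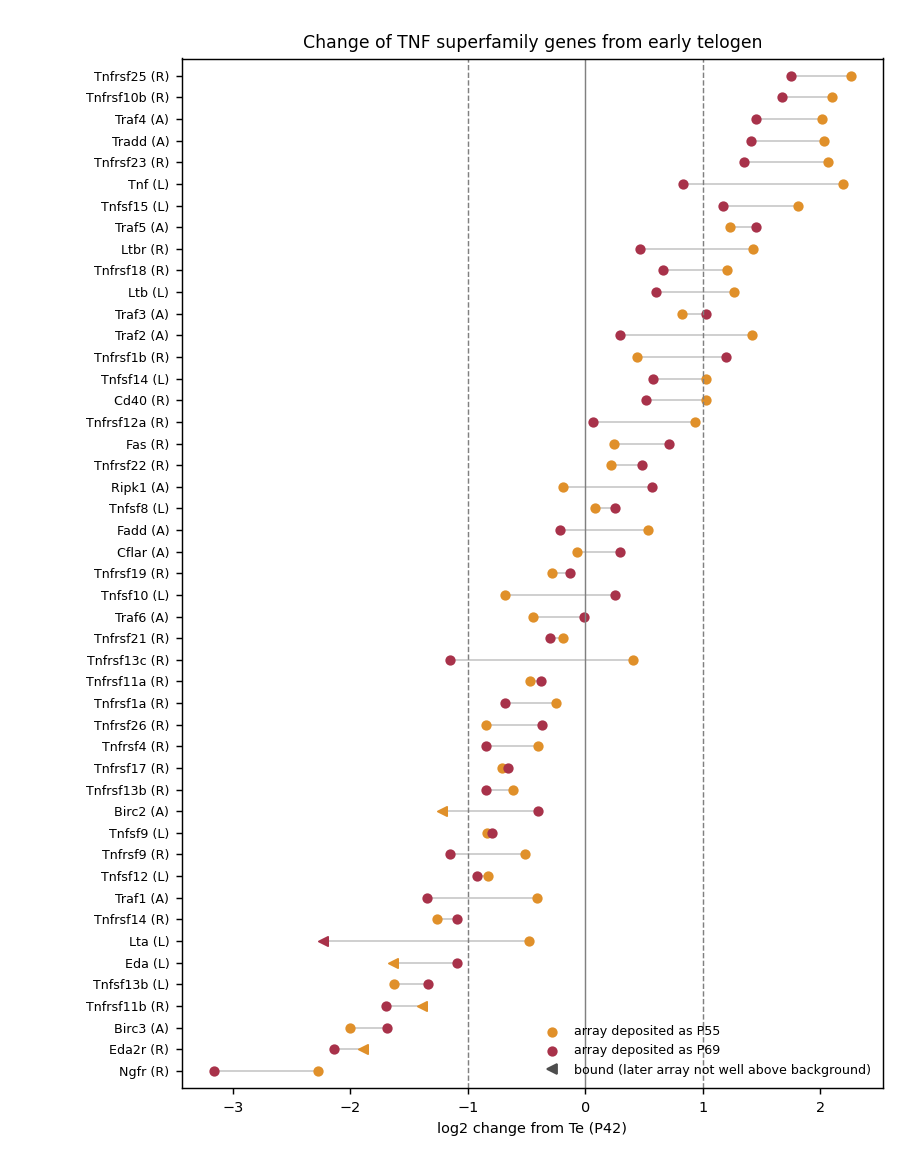
Change of each TNF superfamily gene from Te in log2 units on the P55 array and on the P69 array, ordered by their mean, with ligands (L), receptors (R) and adaptors (A) marked and dashed lines at 2-fold. Triangles are bounds where the later array did not detect the probe. Tnfrsf25, Tnfrsf10b, Traf4 and Tradd lie past the upper line, and Ngfr, Eda2r and Birc3 past the lower line, on both arrays.

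Of the 12 adaptors, 3 passed 2-fold upward on both later arrays (25%, beside 16.6% of all genes) and 1 downward (8.33%, beside 11.3%). With so few genes, the distance from the shares of all genes was not tested. Tradd, the death domain adaptor that binds TNFR1 and DR3, had levels of 0.00 at Te, 2.02 on the P55 array and 1.41 on the P69 array, 4.08-fold and 2.66-fold higher. Traf4, the TRAF best known from epithelia, had levels of 0.26, 2.27 and 1.71, 4.03-fold and 2.73-fold higher. Traf5, which acts with Traf2 on receptors such as CD40, had levels of -1.61, -0.38 and -0.16, 2.34-fold and 2.73-fold higher. On the P55 array it fell short of 2-fold with the 75th percentile taken over detected probes and after normexp background correction. Its lowest change there was 0.86.

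The partner adaptors of Tradd at the receptor moved less. Ripk1, the kinase of the TNFR1 complex, had levels of -1.74, -1.93 and -1.17, changes of -0.19 and 0.57. Fadd, which links death receptors to caspase-8, had levels of 0.62, 1.16 and 0.40, changes of 0.53 and -0.22. Cflar (c-FLIP), which blocks caspase-8, had levels of 2.60, 2.53 and 2.90 by its brightest probe, with changes of -0.07 and 0.30. Another probe gave -1.07 and -1.34, past 2-fold downward, and a further one -0.88 and -0.27. The direction on the P69 array thus depended on the probe.

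The other TRAFs showed no common direction. Traf2, the main TRAF of TNF receptors, had levels of -0.10, 1.31 and 0.19, 2.67-fold higher on the P55 array and 1.23-fold on the P69 array. A second probe of Traf2 gave log2 changes of 2.21 and 1.23, past 2-fold upward on both later arrays. Traf3, which holds back the non-canonical arm of NF-κB, had levels of 0.30, 1.13 and 1.33 and passed 2-fold on the P69 array with a change of 1.03. Traf1, itself a known product of NF-κB activity, had levels of 0.22, -0.19 and -1.13 and was 2.55-fold lower on the P69 array. Traf6, which serves CD40, RANK and the Toll-like receptors, had levels of -2.07, -2.52 and -2.09.

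Birc3 (cIAP2), a ubiquitin ligase bound to TRAF2 and a known product of NF-κB activity, had levels of 3.49 at Te, 1.48 on the P55 array and 1.80 on the P69 array, 4.02-fold and 3.23-fold lower. Birc2 (cIAP1), its neighbour on chromosome 9 and close in function, had a level of -2.82 at Te and -3.23 on the P69 array, a change of -0.40, and was not detected on the P55 array, at least 2.32-fold lower.

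Seen as ligand and receptor pairs, 11 of 23 known pairs had both partners detected on all 3 arrays, and 4 had the receptor on all 3 and the ligand on none: Fasl with Fas, Tnfsf4 with Tnfrsf4, Cd40lg with Cd40, and Tnfsf11 with Tnfrsf11a. Of the pairs with both partners detected throughout, Tnfsf15 with Tnfrsf25 was the pair in which both rose at least 2-fold on both later arrays, a call that the ligand lost on the P69 array under the 2 settings given above. Tnfsf10, the ligand of Tnfrsf10b, stayed within 2-fold while its receptor rose. Tnfsf13b fell on both arrays while Tnfrsf13b, with changes of -0.61 and -0.85, stayed within 2-fold. Ltb and Ltbr both passed 2-fold on the P55 array alone.

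From the P55 array to the P69 array, the median difference of the family was -0.17, beside -0.15 for all genes. Of 46 with a value, none was at least 2-fold higher on the P69 array than on the P55 array and 4 were lower, beside 1165 higher and 1676 lower of 14846 genes overall. The 4 were Lta by at least 1.75, Tnfrsf13c by 1.56, Tnf by 1.36 and Traf2 by 1.12 on the log2 scale. Were the labels of the arrays exchanged, the sign of these differences would turn.

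The genes downstream of the receptors were described by lists drawn up from textbook roles. Their counts stand beside 29.1% of all genes higher and 16.9% lower on the P55 array, and 22.2% higher and 20.7% lower on the P69 array. In the NF-κB list (subunits, inhibitors, kinases and ubiquitin enzymes), 8 of 24 were higher and 1 lower on the P55 array, and 2 higher and none lower on the P69 array, with medians of 0.29 and 0.32. Tnip1, an inhibitor that works with A20, changed by 2.48 and 1.40, and Tab1, a subunit of the TAK1 kinase complex, by 1.70 and 1.39. Tab3, of the same complex, changed by -1.62 and -0.09. Map3k7, the TAK1 kinase itself, with -0.52 and -0.56, and the feedback inhibitor Nfkbia (IκBα), with -0.35 and -0.54, stayed within 2-fold.

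In a list of 13 genes commonly induced by TNF, 12 had a value, and 5 were lower on each later array, with none higher on the P55 array and 1 on the P69 array. The medians were -0.59 and -0.63. Ptgs2, the inducible cyclooxygenase, was at least 4.56 lower in log2 on the P55 array, where it was not detected, and 2.67 lower on the P69 array. Nfkbiz, an inducible nuclear IκB, changed by -2.14 and -1.73, and Ccl2, a chemokine for monocytes, by -2.01 and -1.87. Cxcl2, a chemokine for neutrophils, changed by -0.15 and 1.12, and Ier3, an early response gene, by 1.00 and 0.27. Without any scaling of the arrays, the median of this list on the P69 array was 0.53, when that of all genes was 1.32.

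Of 5 enzymes and cofactors that process the ligands, 3 were higher on the P55 array and 2 on the P69 array, and none was lower, with medians of 1.20 and 0.70. Adam17, the sheddase that releases TNF, changed by 1.45 and 0.70, Adam10 by 1.20 and 1.69, and Rhbdf1, a partner that carries Adam17 to the surface, by 1.85 and 1.27. Furin, a proprotein convertase, with 0.74 and -0.10, and Rhbdf2, with 0.49 and -0.05, stayed within 2-fold.

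The lists of the death arm and of the kinases were mixed. Of the death arm genes, 2 of 8 were lower on the P55 array and none of 9 on the P69 array, with medians of 0.26 and 0.20. Casp8, the caspase that Fadd recruits, changed by -0.64 and -0.37. Of 11 genes of the JNK and p38 arm, none was higher and 3 were lower on the P55 array, and none was higher and 2 were lower on the P69 array, with medians of -0.05 and 0.02. Map3k5 (ASK1) changed by -1.25 and -1.82, and Jun by -1.13 and -1.61. Of 11 accessory adaptors, 2 were higher and 2 lower on the P55 array, and none higher and 3 lower on the P69 array, with medians of -0.32 and -0.58, Traf7 at 1.90 and 0.98 and Tax1bp1, a partner of A20, at -1.08 and -1.16.

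**Figure D4:**
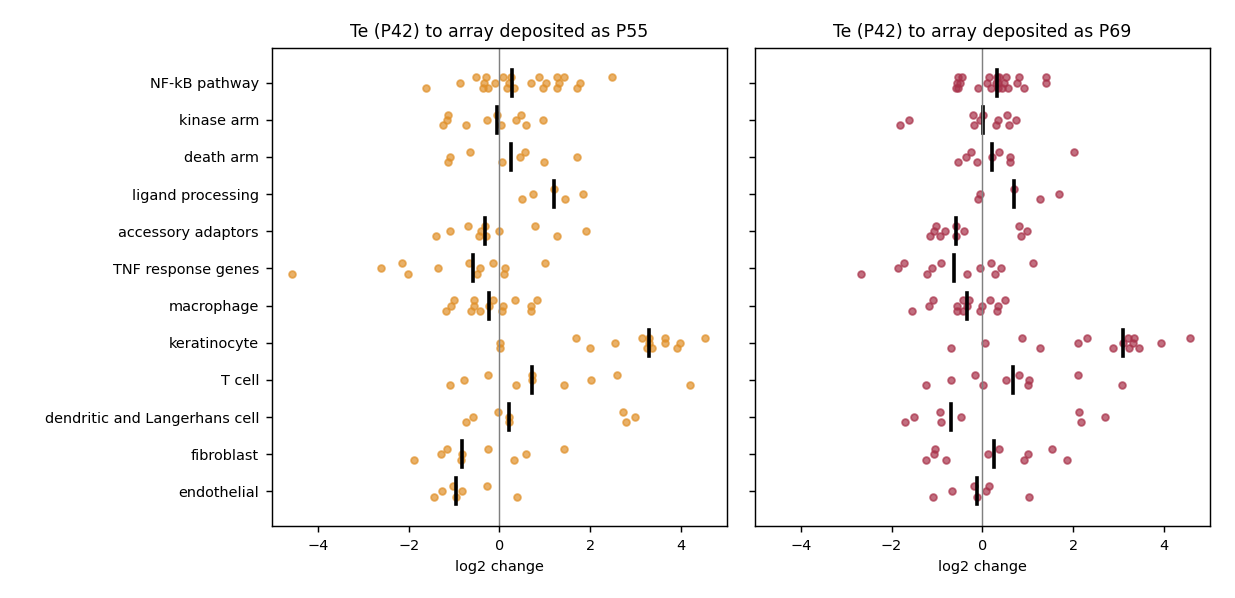
Changes from Te in log2 units, with 1 point per gene and the median as a black bar, on the P55 array (left) and the P69 array (right). Shown are the pathway lists and the macrophage, keratinocyte, T cell, dendritic and Langerhans cell, fibroblast and endothelial lists. The medians of the keratinocyte markers (3.29 and 3.09) stand apart, and those of the ligand processing list (1.20 and 0.70) lie above 0. The medians of the TNF response genes (-0.59 and -0.63) and accessory adaptors (-0.32 and -0.58) lie below it. On the P69 array, each of these lists had genes on both sides of 0.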

How the data were processed

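The authors scanned 1 one-color Agilent array per stage, and the deposited files hold spot intensity values per probe from Feature Extraction 10.7 (per the labels). The deposited value table holds log2 values centred on the median of each probe over the 3 arrays, and was used as an alternative. The label gives day 42 for Te where the paper gives day 44. Python 3.11.15 (pandas 2.3.3, numpy 2.4.6) took log2 of the processed signal minus the 75th percentile of the array, left out outlier spots (162, 274 and 281) and averaged the spots of a probe. No spot was saturated. Symbols came from RefSeq transcripts for 26056 of 55681 probes, and a gene took its probe with the highest mean level. Of the 56 genes, 14 had several probes. In 12 of these, 2 or more probes had a value. Their signs were opposite for 5 genes on the P55 array and for 6 on the P69 array. Tradd, Traf4, Tnfrsf25, Tnfrsf10b, Ngfr and Birc3 rest on 1 probe each. Normexp (offset 50) used limma 3.58.1 in R 4.3.3, and quantile normalization was done in Python. With 1 array per stage, no test was run, and the number of arrays limits the precision.

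Levels were given for genes detected on 1 array or more, and folds for those past 2-fold and for Tnf, Tnfrsf1a, Tnfrsf1b, Ripk1, Tradd and Fadd. Of each pathway list, counts, the median and at most 5 genes were given. These were taken from the largest increases and the largest decreases by mean change, or define the list. Genes further from 0 in one direction could thus be left out while genes nearer 0 in the other were named. The genes, lists, pairs and motifs were chosen with earlier results of these data known. The calculation was tested on simulated data. One gene of these lists and a count resting on it are not reported here.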

Additional observations from a re-analysis of the deposited data

How the results depend on the processing

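No paired analysis was possible because each stage had 1 array, and no array could be left out for the same reason. The genes at least 2-fold higher on both later arrays (7) numbered 16 with no normalization and 0 at 4-fold and 10-fold. Those lower on both (7) numbered 1 with no normalization, 4 where both arrays had to detect the probe, 1 at 4-fold and 0 at 10-fold. On the P69 array, the 10 higher genes became 6 with the 75th percentile taken over probes detected on all arrays, 26 with no normalization and 0 at 4-fold and 10-fold, and the 11 lower became 2, 3 and 0 with no normalization, 4-fold and 10-fold. On the P55 array, the 14 higher became 9 with the percentile over detected probes, 6 at 4-fold and 0 at 10-fold, and the 8 lower became 13, 2 and 0, and 4 where both arrays had to detect the probe. The median on the P69 array (0.02) was -0.18 with the percentile over detected probes, 0.25 by quantile normalization, 1.15 with none and -0.19 with the arrays exchanged. That on the P55 array (-0.19) was -0.56, 0.15, 0.07 and 0.0234 in the same order, 0.0786 with probes detected on both arrays, 0.0026 with no filter and 0.045 with the median over probes. The median of all genes moved with the scaling, from 0.22 and 0.15 on the P55 and P69 arrays to -0.16 and -0.05, 0.32 and 0.30, and 0.52 and 1.32 under the first 3 of these settings. Of the changes past 2-fold, the directions that turned were, on the P69 array, those of Cd27 (-0.083 in the value table), Eda (0.0675 with no normalization), Tnfrsf14 (0.073) and Tnfrsf9 (0.0079) likewise, and Tnfrsf13c (0.008 with no normalization, 0.52 with the median over probes, 0.41 with the arrays exchanged and 0.41 in the value table). Smaller changes turned too, such as those on the P69 array of Birc2 (0.25 by quantile normalization, 0.76 with none), Fadd (0.94) and Tnfrsf1a (0.48) with none, and Ripk1 (-0.19 with the arrays exchanged). The cause was not tested. Under each scaling, background and outlier setting, Tradd, Traf4, Tnfrsf25 and Tnfrsf10b stayed at least 2-fold higher on both later arrays. Under the same settings, Ngfr stayed lower by 2.01 to 2.65 on the P55 array and 2.00 to 3.37 on the P69 array. The filter and probe settings could not move these genes, as each had 1 probe, detected on all 3 arrays. The macrophage list had a median of 0.82 on the P69 array with no normalization.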
